A study of Urocitellus parryii with 44 samples.

Results

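The cytosolic ribosomal protein genes were followed in brown adipose tissue, the heat-producing fat of mammals, of torpid and summer active arctic ground squirrels. Members were all probes whose annotation held a single gene symbol beginning with Rpl or Rps and a digit, kinases of the Rps6k family left out, or the symbol Rplp0, Rplp1, Rplp2 or Rpsa. They came to 260 of 38400 probes, for 84 symbols. The large subunit had 166 probes for 54 symbols and the small subunit 94 probes for 30 symbols. Of the 84 symbols, 14 (21 probes) name pseudogenes, paralogs or, for Rps19bp1, a binding partner, and they were kept because the rule takes them. Rps27a had no probe with a single symbol, so it is not analysed here.

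The animals were 5 squirrels in winter torpor and 3 summer squirrels taken while active in August. Torpor is the phase of hibernation with deeply lowered metabolism and body temperature, and season and torpor changed together here, so that their contributions cannot be told apart. Their total RNA, marked with radioactive phosphorus, was read out on the membranes MA07, MA08, MA10 and MA11, each carrying 9600 cDNA probes of the mouse. The RNA of torpid animal 5 and of summer animals 1 and 2 was split and measured as duplicates a and b on every membrane, and duplicates were averaged to 1 value per animal. Of the brown adipocyte markers Ucp1, Cidea, Ppargc1a, Dio2, Adrb3, Fabp3, Fabp4, Elovl3, Cpt1b, Adipoq, Plin1 and Pparg, 6 of 12 had a tested probe. The brightest was Fabp3 on MA07, at signal percentile 97.9, and the dimmest Dio2 on MA08, at 6.96. Ucp1, the uncoupling protein that defines brown fat, was among the markers not analysed here.

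A ribosome joins a small subunit, which reads the messenger RNA, to a large subunit, which forms peptide bonds, and each subunit wraps ribosomal RNA in proteins that are made in the cytosol and imported into the nucleolus for assembly. The acidic proteins Rplp0, Rplp1 and Rplp2 form the stalk of the large subunit, where translation factors dock. Ribosomal protein messengers are among the most abundant of a cell, and in mammals many carry a terminal oligopyrimidine tract through which the mTOR kinase controls their translation.

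Ribosomal protein probes were lower in torpor on MA10, and on the other membranes their differences lay on both sides of 0. Over all membranes 183 of the 259 tested member probes (70.7%) had a difference, torpor minus summer, below 0, as did 50% of all tested probes. Every torpid animal lay under every summer animal in 47 of them and above in 5, or 18.1% and 1.93%, beside 4.13% and 4.37% of all tested probes. The median member difference was -0.38 on the log2 scale, beside 6.49e-05 over all 37848 tested probes. By limma with Benjamini-Hochberg adjustment over all tested probes, 7 member probes passed an adjusted p of 0.05 and were lower in torpor, a direction called in 0.0502% of all probes. No member probe was called higher in torpor by limma, against 0.259% of all probes, while at an unadjusted p under 0.05 there were 7 higher and 59 lower, where all probes gave 6.39% and 5.18%.

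All 7 called probes lay on MA10, where 0.172% of all probes were called lower. On that membrane 88 of 94 member probes were below 0, beside 50.5% of all its probes, with a median of -0.83 and a middle range from -1.50 to -0.37, and 44 were lower at an unadjusted p under 0.05, as were 6.14% of its probes. Every torpid animal lay under every summer animal in 40 of the 94 (42.6%), which held for 4.92% of all MA10 probes, and the reverse held for 1, against 4.03% of all MA10 probes. On MA07 50 of 88 member probes were below 0 (52.7% of all its probes), with a median of -0.15. On MA08 31 of 56 were below 0 (49% of all its probes), with a median of -0.11, and on MA11 14 of 21 (47.7%), with a median of -0.24. Complete separation with torpor lower was seen in 4 member probes on MA07 (4.21% of all its probes), 2 on MA08 (3.52%) and 1 on MA11 (3.89%), shares of members of 4.55%, 3.57% and 4.76%. On MA07 another 4 member probes were separated with torpor higher, where 4.04% of all probes were.

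**Figure D1:**
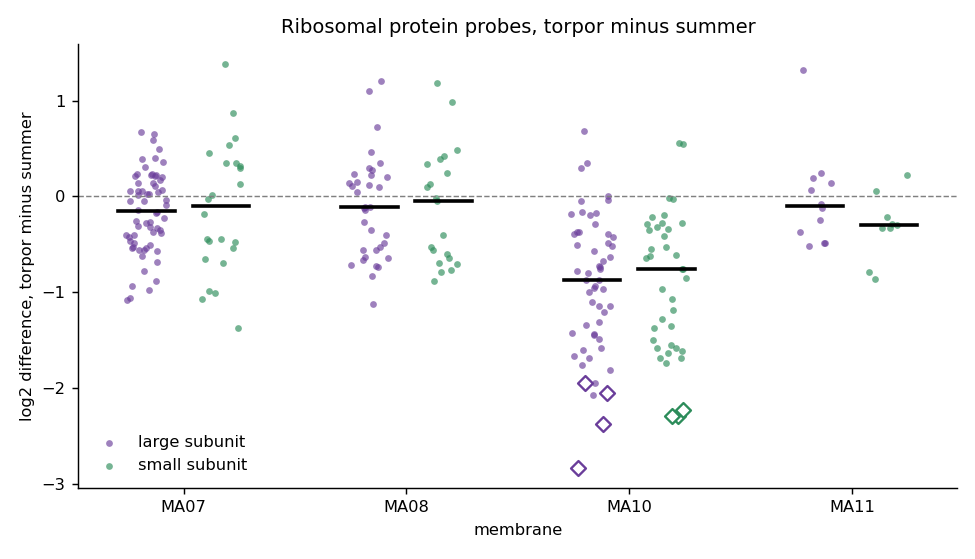
Difference of every tested ribosomal protein probe on the log2 scale, torpor minus summer, by membrane and subunit. Each point is a probe, black lines are medians and open diamonds are the 7 probes past an adjusted p of 0.05. On MA10 both subunits lie mostly below 0, with medians of -0.87 (large) and -0.76 (small), while on the other membranes the points straddle 0.

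The membranes differed in how the summer animals stood. On MA10 the median log2 intensity over the column median, taken over member probes, was 2.34, 2.47, 2.51, 2.75 and 2.48 in torpid animals 1 to 5, against 3.59, 2.95 and 3.47 in summer animals 1 to 3. The groups did not overlap there. On MA07 the medians were 1.70, 1.42, 1.26, 1.76 and 1.61 in the torpid animals, against 1.52, 1.08 and 2.81 in the summer animals. Summer animal 3 lay above and summer animal 2 below all torpid animals, with summer animal 1 among them. The same order held on MA08, with 2.49, 2.34, 2.06, 2.05 and 1.47 in torpor against 1.99, 0.77 and 3.27 in summer. On MA11, with 2.48, 2.49, 2.36, 2.44 and 2.83 in torpor, summer animals 2 and 3 again lay below and above all torpid animals, at 2.07 and 4.23, and summer animal 1 stood at 2.49.

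Summer animal 3 was therefore high in ribosomal protein signal on all 4 membranes. Relative to the mean of the torpid animals, its median member difference was 0.99, 0.79, 1.002 and 1.02 on MA07, MA08, MA10 and MA11. Of its member values, 75 of 85, 50 of 55, 82 of 94 and 20 of 21 lay above that mean. Summer animals 1 and 2 were above the torpid mean on MA10, by 1.09 and 0.65, and on the other membranes animal 1 stood between -0.11 and 0.01 and animal 2 between -0.48 and -0.44. Without summer animal 3 the member median was -0.77 on MA10 and 0.23, 0.21 and 0.34 on MA07, MA08 and MA11. The sign of the other 3 membranes, and of the median over all of them (0.01), thus rests on that animal. With each animal left out in turn, the lowest medians were -0.59, -0.40 and -0.38 on MA07, MA08 and MA11, and -0.69 over all membranes.

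The duplicates of the split summer RNAs differed from each other over the ribosomal probes by as much as the groups did. On MA10 duplicate a was lower than duplicate b by a median of 1.15 in summer animal 1 (88 of 94 probes) and also by 1.15 in summer animal 2 (75 of 94). Against the torpid mean, the MA10 columns stood at 0.55 (1a), 1.76 (1b), 0.25 (2a), 1.04 (2b) and 1.002 (summer animal 3). The medians of all 5 summer columns were thus above 0 on MA10, the torpid columns lying between -0.16 and 0.14. In column 2a only 52 of 94 member probes (55.3%) were above the torpid mean, as were 54.4% of all tested probes in that column, and its member level median of 2.45 lay among those of the torpid animals. With the first duplicate alone the MA10 median was -0.48 and with the second alone -1.16, the same sign at different sizes.

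On the other membranes the duplicates of summer animal 2 differed the opposite way. Its duplicate a exceeded b by 0.67, 0.75 and 0.94 on MA07, MA08 and MA11, and 2b was the lowest of all columns there, at -0.84, -0.89 and -1.19 against the torpid mean. Duplicate a of summer animal 1 was lower than b by 0.38, 0.55 and 0.33. In torpid animal 5 the duplicates differed by at most 0.06 in this median on any membrane. Other probes among the brightest 10% of each membrane differed between these summer duplicates in the same direction but less: on MA10 by -0.45 in summer animal 1 and -0.30 in summer animal 2, a minus b, and by 0.36, 0.38 and 0.42 in summer animal 2 on MA07, MA08 and MA11. What set the duplicates apart was not tested.

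**Figure D2:**
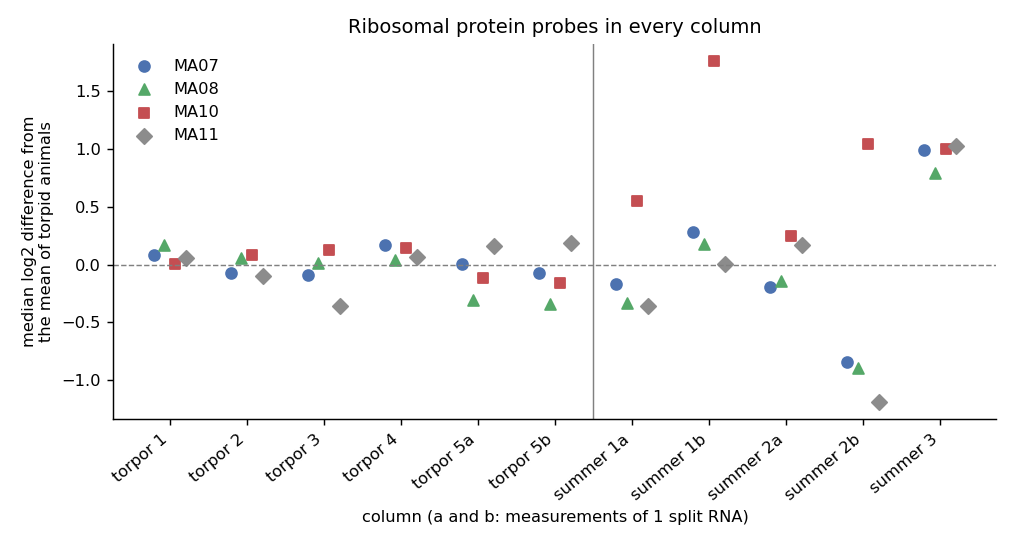
Median over ribosomal protein probes of the log2 difference from the mean of the torpid animals, for each of the 11 columns of each membrane, torpid columns on the left and summer columns on the right of the line. The letters a and b mark measurements of a split RNA. Torpid columns stay near 0, summer animal 3 is high on every membrane, and the duplicates of summer animals 1 and 2 stand apart, with MA10 above 0 in all 5 summer columns.

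Ribosomal probes were also more variable among summer animals than among torpid animals. The median SD of a member probe was 0.39 over torpid and 0.76 over summer animals, beside 0.35 and 0.36 over all tested probes. Off MA10 the contrast was wider, with 0.32 and 0.93 on MA07, 0.35 and 1.05 on MA08, and 0.35 and 1.11 on MA11, while MA10 had 0.49 in torpor and 0.58 in summer. Other probes among the brightest 10% were also more variable in summer, with 0.34 in torpor and 0.64 in summer over all membranes. They had 0.28 and 0.78 on MA07, 0.29 and 0.80 on MA08, 0.36 and 0.48 on MA11, and 0.49 and 0.56 on MA10.

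Large and small subunit probes were compared within each membrane. The median difference was -0.15 for the large and -0.10 for the small subunit on MA07, -0.11 and -0.05 on MA08, -0.87 and -0.76 on MA10, and -0.10 and -0.30 on MA11. Large minus small was thus -0.05, -0.07, -0.11 and 0.20 on MA07, MA08, MA10 and MA11. It changed sign with the animals used: without summer animal 3 it was 0.20 on MA08, without torpid animal 5 it was 0.21 there, and without summer animal 2 0.17 on MA10. With 1 animal left out it ran from -0.11 to 0.12 on MA07 and from 0.01 to 0.44 on MA11. Of the 7 called probes 4 belonged to the large and 3 to the small subunit. On MA10 26 of 55 large and 18 of 39 small subunit probes were lower at an unadjusted p under 0.05.

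A second reading, from the level medians of each animal, gave other sizes on MA07 and MA08. On MA08 the median of large subunit probes lay under that of small subunit probes by 0.71, 0.90, 0.88, 0.93 and 1.21 in the torpid animals. It lay under by 0.40 and 0.57 in summer animals 1 and 3, and above by 0.11 in summer animal 2. The torpid animals did not overlap the summer animals in this contrast, whose mean in torpor minus that in summer was -0.64, beside an SD within groups of 0.25. On MA07, where the groups did not overlap either, it was -0.59, and on MA10 and MA11 it was 0.09 on both, with overlap. The first reading compares each probe with itself and the second compares levels summed up per animal. On MA07 and MA08 they gave different sizes of large against small. On MA10 they differed in sign, at -0.11 by probe and 0.09 by animal medians.

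Rpl36, which has no bacterial counterpart, and Rpl35, which lies by the peptide exit tunnel, held the largest called differences of the large subunit. The MA10 probe 7095 of Rpl36 measured 0.09, 2.29, 1.52, 1.33 and 1.16 in the torpid animals, against 2.85, 5.01 and 4.48 in the summer animals, as log2 of the intensity relative to its column's median. All torpid animals were lower than all summer animals, torpid animal 1 the lowest and summer animal 1 nearest to them. The difference was -2.83 ± 0.52 (SE), or 7.13-fold lower in torpor (limma adjusted p = 0.0292). The other Rpl36 probe, 3895 on MA10, was separated likewise, at -2.07 (adjusted p = 0.0736).

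The Rpl35 probe 2695 on MA10 stood at 1.26, 1.14, 0.88, 2.52 and 1.99 in torpor, against 3.56, 3.83 and 4.42 in summer. The groups were more than 1 log2 unit apart at their nearest values, and the difference was -2.38 ± 0.43 (limma adjusted p = 0.0263). Its remaining probes, both on MA10, gave -1.10 and -1.21 with complete separation and did not pass.

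Rpl3, which lies close to the peptidyl transferase centre, was lower in all 7 of its probes at an unadjusted p under 0.05. The called probe, 9472 on MA10, measured -0.25, -0.83, 0.72, 0.07 and -0.07 in torpor, against 1.92, 1.44 and 2.60 in summer. No torpid value reached the lowest summer value, and the difference was -2.06 ± 0.42 (limma adjusted p = 0.0464). The other MA10 probes ranged from -1.69 to -1.15. On MA07 its probe 6023 stood at 1.46, 1.32, 1.16, 1.55 and 1.15 in torpor, against 1.59, 1.68 and 3.97 in summer. Torpor was the lower group here too, but summer animals 1 and 2 lay just above the highest torpid value, and the difference of -1.08 ± 0.47 did not pass (adjusted p = 0.41).

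Among the stalk proteins, Rplp1 passed with the MA10 probe 9393. It measured 3.88, 4.83, 4.51, 4.16 and 4.08 in torpor, against 5.71, 6.42 and 6.60 in summer, with no overlap. The difference was -1.95 ± 0.39, or 3.86-fold lower (limma adjusted p = 0.0423). The further MA10 probes of Rplp1 gave -1.95 and -1.14, and its probes on MA08 and MA11, which share a clone, gave -0.53 and -0.08. Rplp2 had -1.31 on MA10 and -0.97 on MA07, and Rplp0 had -0.68, -0.53 and -0.33, all on MA07. None of these passed, and in the Rplp0 probes only summer animal 3 lay above every torpid animal.

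In the small subunit Rps10 was called, a protein near the messenger entry side of the small subunit head. Its MA10 probe 3915 stood at 1.97, 2.21, 1.69, 2.16 and 1.75 in torpor, against 3.89, 4.34 and 4.52 in summer. Both groups were tight and lay far apart, and the difference was -2.29 ± 0.36, or 4.91-fold lower (limma adjusted p = 0.0148). The other MA10 probes gave -1.75 and -1.36. On MA07 its probe 8279 measured 2.54, 2.70, 1.91, 2.76 and 2.66 in torpor, against 3.22, 3.22 and 5.24 in summer. The groups were separate there as well, at -1.38 ± 0.43, although the adjusted p was 0.26.

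Rps15, which sits near the decoding region, passed with the MA10 probe 4008. It measured -0.94, -1.26, -0.90, -0.98 and -0.52 in torpor, against 0.49, 1.48 and 2.17 in summer. Torpid values were close together and all lower, and the difference was -2.30 ± 0.41, or 4.92-fold lower (limma adjusted p = 0.0260). Its other MA10 probe gave -1.07 and its 4 probes on the other membranes -0.70 to -0.33, none past the threshold. On MA11 the summer animals held both the lowest value, 2.65, and the highest, 5.01. The MA07 probe 609 had no value in torpid animal 2.

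Rpsa, which is also known as the laminin receptor precursor, had 9 probes, all below 0. The called one, 7731 on MA10, measured 0.29, -0.44, 0.04, -0.50 and -0.81 in torpor, against 1.55, 1.51 and 2.79 in summer. There was no overlap, and the difference was -2.23 ± 0.42 (limma adjusted p = 0.0315). The other 5 MA10 probes ranged from -1.64 to -1.38, each with complete separation, and none passed. Off MA10 Rpsa gave -0.79 on MA11 and -0.70 and -0.47 on MA07, and in all 3 of these probes summer animals 1 and 3 lay above every torpid animal. Summer animal 2 lay below every torpid animal on MA07 and below all but torpid animal 3 on MA11.

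**Figure D3:**
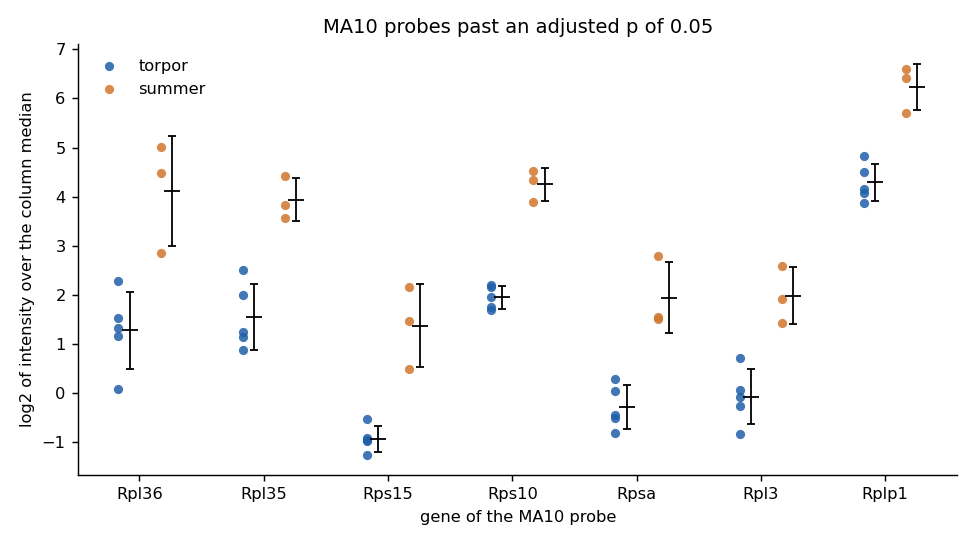
Log2 intensity over the column median in each animal for the 7 MA10 probes past an adjusted p of 0.05, torpor on the left and summer on the right of each gene. Points are animals and bars are the mean ± SD (n = 5 and 3). In none of the 7 does a torpid animal reach a summer animal.

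The 7 calls depended on the animals. With torpid animals 1 to 5 left out in turn, 2, 1, 1, 2 and 3 of the 7 probes still passed, and with summer animals 1, 2 and 3 left out 6, 2 and 1 did. Rps10 passed in 8 of these 8 fits, Rpl35 and Rpsa in 3 each, Rps15 in 2, Rpl36 and Rplp1 in 1 each and Rpl3 in 0, its adjusted p by limma lying between 0.0507 and 0.157.

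Of the other large subunit genes with the lowest differences, Rpl10, needed for joining of the subunits, stood at -1.81 on MA10 (adjusted p = 0.0914), and its remaining probes ran from -1.60 to -0.17. Rpl31, which lies by the peptide exit tunnel, had 3 MA10 probes at -1.76, -1.49 and -0.80, each with all torpid animals under all summer animals. Rpl32 gave -1.59 on MA10 and -1.06 on MA07. Rpl23a, another tunnel exit protein, ran from -1.44 and -0.78 on MA10 to -0.40 on MA07 and 0.47 on MA08. None passed by limma.

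In the small subunit Rps14, a protein of the platform, was lower at an unadjusted p under 0.05 on both its membranes. On MA10 it measured 1.43, 2.20, 2.38, 2.08 and 1.69 in torpor, against 3.36, 3.79 and 3.80 in summer, a difference of -1.69 (adjusted p = 0.0670). The groups lay apart. On MA07 it gave -0.99, with summer animals 1 and 2 below torpid animal 4. Rps16, whose tail reaches the peptidyl site, had 3 MA10 probes at -1.69, -1.59 and -0.97, all separated. Rps9 had 6 probes from -1.58 on MA10 to -0.05 on MA08, a pair of the MA08 probes lacking a value in 1 animal each. The paralog symbol Rps4l had its only probe on MA10, at -1.19.

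Rps3, which lines the messenger entry channel and also has a role in DNA repair, had 5 probes, from -1.29 on MA10 to -0.32. On MA08 its probe 4313 stood at 3.31, 3.76, 2.98, 2.58 and 2.89 in torpor, against 3.93, 3.81 and 3.95 in summer. Every torpid value was lower, torpid animal 2 only just, and the difference was -0.79 ± 0.26 (limma adjusted p = 0.27). Rps6, the ribosomal target of the S6 kinases, was near 0, with 7 tested probes from -0.41 to 0.42, and its other probe, on MA11, had too few values to test. Rpl22, needed for T cell development in mice, had 1 probe, at -0.09. None of these passed by limma.

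Rpl13a and Rps2, chosen after their values were seen, have no MA10 probe and stood below 0 in both of their probes. Rpl13a, known in human cells for a role in silencing inflammatory messengers, gave -0.94 on MA07 and -1.13 on MA08, each with an unadjusted p under 0.05. On MA07 it stood at 3.41, 3.28, 3.23, 3.39 and 3.03 in torpor, against 3.65, 3.89 and 5.09 in summer, without overlap. Rps2 gave -1.07 and -1.01 on MA07, where the summer animals overlapped the torpid ones.

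Some ribosomal protein genes stood above 0 in torpor, although no probe of them passed. Rps18, which lies in the head of the small subunit where it contacts the large subunit, had 4 probes, at 1.38, 0.87 and 0.13 on MA07 and 1.18 on MA08, the 0.13 without a value in summer animal 3. Probe 2502 on MA07 measured 2.43, 1.88, 2.33, 2.95 and 2.64 in torpor, against 0.69, 0.54 and 1.96 in summer. Summer animal 3 overlapped the lowest torpid animal, and the difference was 1.38 ± 0.34 (limma adjusted p = 0.16). Probe 8119 on MA07 stood at 1.93, 2.17, 1.90, 1.80 and 2.15 in torpor, against 1.31, 0.46 and 1.60 in summer, with every torpid value higher. Without summer animal 3 probe 2502 gave 1.83 and passed (limma adjusted p = 0.0289), in a fit in which the MA07 member median was 0.23.

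Rpl24, at the subunit interface of the large subunit, gave 1.21 on MA08, 1.31 on MA11 and 0.01 on MA10. Its MA11 probe measured 6.22, 5.62, 5.58, 6.46 and 6.38 in torpor, against 4.73, 3.23 and 6.24 in summer. Summer animal 3 lay among the torpid animals and the others below. Its MA08 and MA11 spots hold 1 clone, and the MA08 spot passed without summer animal 3 (2.02, limma adjusted p = 0.0252). Rpl34 stood at 1.10 on MA08 and at 0.69 and 0.35 on MA10. In its MA08 probe summer animal 2 was at 0.73, against 3.66 to 4.32 in torpor, with summer animals 1 and 3 at 3.59 and 4.22.

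Summer animal 2 was low in further genes with positive differences. Rpl11, which with Rpl5 can bind Mdm2, had 0.72 on MA08, 0.50 on MA07 and 0.30 on MA10, with summer animal 2 below every torpid animal in each. Rps3a1 had 0.99 on MA08 and 0.61 on MA07 but -0.53 to -0.03 on MA10, and Rps7 0.54 in its only probe, summer animal 2 being at 1.65 there against 4.22 to 5.38 in torpor. Rpl4 ran from 0.65 on MA07 to -1.34 on MA10, Rps4x from 0.55 to -0.64, both within MA10, and Rps26 from 0.55 to 0.23 over its 3 probes. The Rpl30 probe 6177 on MA07 was separated, at -0.27, -0.52, -0.30, -0.43 and -0.61 in torpor against -1.34, -1.14 and -0.82 in summer, a difference of 0.68 (limma adjusted p = 0.19). Its remaining 6 probes ran from -0.66 to 0.21.

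Probes of a gene were compared for the side of 0 they lay on. Repeat spots of 1 clone counted as separate probes. A single clone made up all 3 probes of Rps16-ps2, 2 of the 3 of Rps25 and 3 of the 5 of Rps3. Of the 46 member genes with 3 or more tested probes, 22 had all of them below 0 and 9 all above 0, so that 67.4% were one-sided, as were 22.5% of the 3471 other genes with as many probes. After the member median of each membrane was subtracted from its probes, 27 of the 46 genes (58.7%) were still one-sided, 12 below and 15 above. Of the 18 member genes with 2 tested probes, 15 (83.3%) were one-sided as fitted and 10 (55.6%) after the subtraction, beside 54.8% of the 3189 other genes with 2, as fitted. The 9 genes with all probes above 0 were Rpl11, Rpl24, Rpl34, Rpl7a, Rpl7l1, Rps15a, Rps18, Rps25 and Rps26, and apart from Rps18, Rpl24, Rpl34 and Rpl11 their medians ran only from 0.13 to 0.35. Every tested probe was lower at an unadjusted p under 0.05 in 7 genes with 2 or more probes: Rpl3, Rpl35, Rpl36, Rpl13a, Rps10, Rps14 and Rps16. They were 10.9% of the 64 member genes with as many probes, beside 0.195% of 6660 other genes, which were not matched for signal or membrane. Probes of Rpl35, Rpl36 and Rps16 lay only on MA10, as did 6 of 7 of Rpl3, 3 of 4 of Rps10, 1 of 2 of Rps14 and 0 of 2 of Rpl13a. All probes of a gene were read in the same animals.

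**Figure D4:**
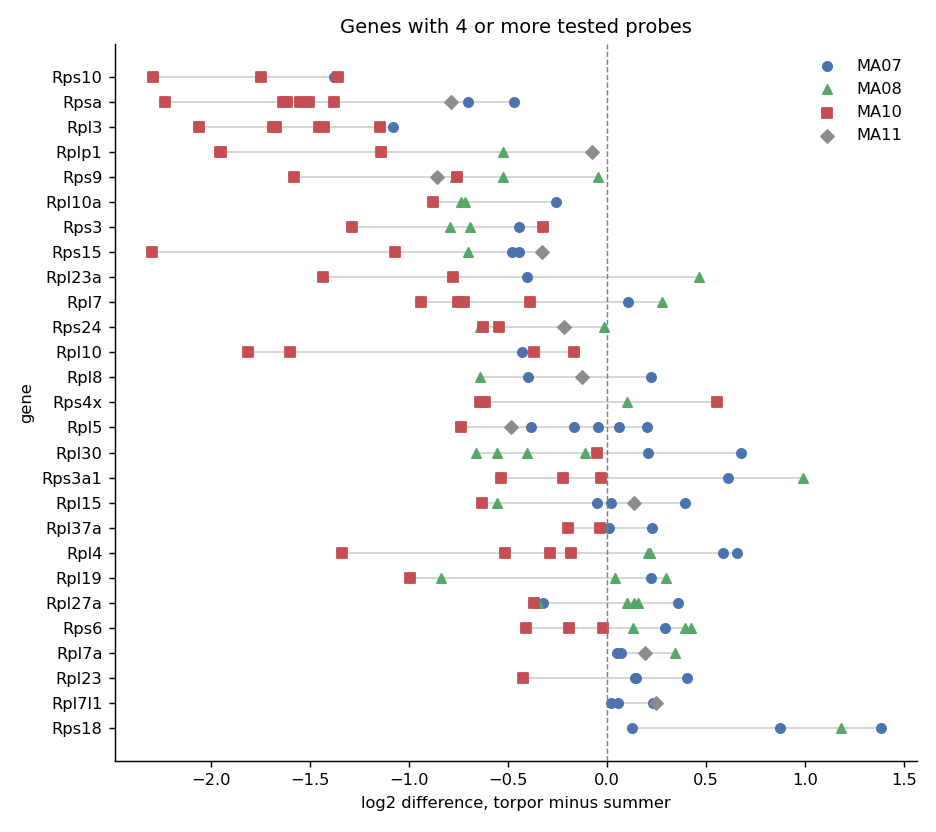
Difference of each probe on the log2 scale, torpor minus summer, for ribosomal protein genes with 4 or more tested probes, ordered by the gene's median, with symbols for the membrane. MA10 probes lie at the low end of most genes, and the gene order runs from Rps10 and Rpsa, with all probes below 0, to Rps18, with all above 0.

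Because the membranes carry different genes, the MA10 shift was read within genes. Of the 42 member genes with probes on MA10 and on another membrane, 39 were lower on MA10, with a median of -0.63 there against -0.16 on the others and a median gap of -0.52. Among 3341 other genes so placed the gap was -0.05, and 53.1% were lower on MA10. Those genes were not matched to the members for signal. Other probes among the brightest 10%, not paired by gene, were also lower on MA10. Their median was 0.06 there, against 0.31, 0.41 and 0.46 on MA07, MA08 and MA11. Rplp1 had an MA10 median of -1.95 against -0.30 on the others, Rps15 -1.68 against -0.46, and Rpl24 0.01 against 1.26. The 3 genes that ran the other way were Rpl27 (-0.17 on MA10 against -0.56), Rps26 (0.55 against 0.29) and Rpl30 (-0.05 against -0.26).

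**Figure D5:**
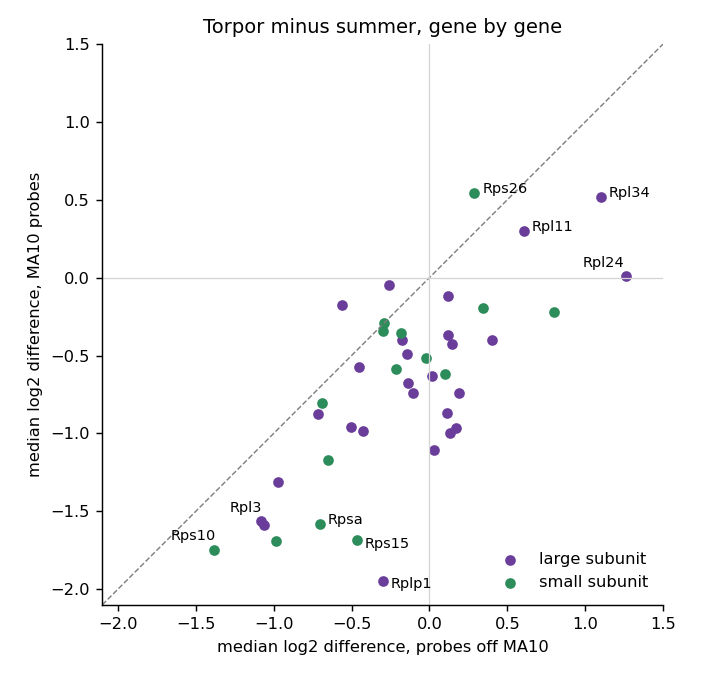
Median difference on the log2 scale, torpor minus summer, of each of the 42 ribosomal protein genes with probes on MA10 and on another membrane. The vertical axis is the MA10 median, the horizontal axis the median on the other membranes, and the dashed line marks equal values. Of the 42 points 39 lie below the line.

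Clones spotted more than once allowed the same cDNA to be compared. Of 235 clones among the members, 13 were tested on more than 1 membrane, and their differences spread over a median range of 0.45. These ranges take in all spots of a clone, also spots on the same membrane. The widest were Rpl19 (1.04), Rpsa (0.83), Rpl27-ps3 (0.70), Rpl30 (0.61) and Rpl8 (0.51). The Rpsa clone gave -1.61 on MA10 and -0.79 on MA11, while the Rpl30 clone ran the other way, with -0.05 on MA10 and -0.66 and -0.56 on MA08. So did the Rps3 clone, with -0.32 on MA10 and -0.79 and -0.69 on MA08. The Rpl19 clone gave -0.995 on MA10 and, from a pair of spots on MA08, -0.84 and 0.04, so most of its range lay within MA08. Of these 4 clones spotted on MA10 and another membrane, 2 were thus lower on MA10 than in every other spot and 2 were higher. Signal was unequal between the compared spots. The Rpl30 and Rps3 clones were weak on MA10, at percentiles 12.6 and 17.5, against 95.0 to 98.4 on MA08. The MA10 spot of Rps3 also had no value in torpid animal 2. The Rpl19 clone stood at 61.8 on MA10 against 11.8 and 13.9 on MA08, and the Rpsa clone at 42.8 on MA10 against 92.5 on MA11. Another 7 clones were repeated on 1 membrane only, with a median range of 0.09 and a highest of 0.63 (Rps24). The MA08 pair of Rpl19, not among these 7, lay further apart than that.

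Ribosomal probes were bright, with a median signal percentile of 92.7 and 153 of the 260 among the brightest 10% of their membrane. The other probes of the brightest 10% differed little on MA10, at a median of 0.06, and elsewhere their medians were 0.31, 0.41 and 0.46 on MA07, MA08 and MA11. Of these other bright probes 28.1%, 23.4% and 37.6% were below 0 on MA07, MA08 and MA11, beside 56.8%, 55.4% and 66.7% of member probes. On MA10 the shares were 47.7% and 93.6%. Member probes outside the brightest 10% had a median of -0.995 on MA10, beside -0.80 for those in it. Non-member probes next to a member by index on MA10 had a median of 0.03, and those 10 places away, a spacing at which member probes such as those of Rpsa recur, had -0.10. The 21 probes of pseudogenes, paralogs and the partner had a median of -0.33 with none called, and 35 probes that pair a ribosomal with another symbol, which are not members, had -0.25, also with none called. Mouse cDNA probes cannot tell squirrel transcripts of near-identical ribosomal pseudogenes or paralogs apart, so a value belongs to the sequence family rather than to 1 locus.

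Genes for building ribosomes had a median near 0. Ribosome biogenesis factors, of which 55 of 58 listed genes had probes, gave 123 tested probes with 0 called by limma, and 3 were lower and 9 higher at an unadjusted p under 0.05, or 2.44% and 7.32%, near the 5.18% and 6.39% of all tested probes. Their median was 0.05, and 0.20 on MA10. Npm1 (nucleophosmin, a nucleolar chaperone) stood at 1.25 and 1.27 in a pair of MA07 probes and at -0.54, -0.07 and 0.07 in its other probes. Nob1 (the nuclease that matures the small subunit RNA) had 1.02 and Bop1 (a large subunit processing factor) 0.82. Pes1, which works with Bop1, had 1 probe at -1.18 on MA10 and 3 from 0.06 to 0.70, and Mybbp1a, a nucleolar protein, had -1.68 on MA07 and 3 further probes from -0.27 to 0.19.

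Further ribosomal and nascent chain proteins went both ways. Of 8 listed genes 6 had probes, and of 15 tested probes 0 were called by limma. At an unadjusted p under 0.05, 3 were lower and 5 higher, or 20% and 33.3%, beside 5.18% and 6.39% of all tested probes. The 3 lower were repeat probes of Fau and the 5 higher repeat probes of Btf3. Fau, whose product is cleaved to yield a small subunit protein, was below 0 in 4 tested probes, at -1.78 on MA10 (adjusted p = 0.083) and -0.95, -0.90 and -0.07 on MA07. On MA10 it measured 2.37, 2.76, 2.57, 1.49 and 2.46 in torpor, against 3.44, 4.26 and 4.62 in summer. Btf3, a subunit of the nascent polypeptide-associated complex, had 5 probes from 0.73 to 1.77, all above 0. Of these 3 were separated with torpor higher, as were 4.37% of all tested probes. Its MA07 probe 6221 stood at 1.72, 2.55, 1.87, 2.53 and 2.53 in torpor, against 0.40, -0.68 and 1.70 in summer. Naca, its partner, had 0.71, 0.35 and 0.03, none past the test.

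Kinases and regulators that signal to the ribosome gave 36 tested probes from 17 of 21 listed genes, with 0 called by limma and 3 lower and 8 higher at an unadjusted p under 0.05, or 8.33% and 22.2%, beside 5.18% and 6.39% of all tested probes. The median of the list was 0.05, and 15 of the 36 probes were below 0, beside 50% of all tested probes. Rheb, the GTPase that activates mTOR, had 0.86 and 0.98 on MA08 and 0.97 on MA11. Rptor, the mTOR scaffold, had 1.11 on MA11 and -0.01 on MA10. Tsc1, which restrains Rheb, had -0.87 on MA08 and 0.31 on MA10.

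In bulk tissue, fewer cells of a type and less RNA per cell cannot be told apart, and values divided by a column median do not show a change common to all transcripts. No probe of the marker lists for skeletal muscle, erythroid, immune, endothelial, nerve or dividing cells was called. In the brown adipocyte list 7 of 10 tested probes were below 0, with a median of -0.34 and 0 called, while Fabp3 on MA07 stood at 1.99. The summed linear signal of muscle markers (4 of 10 genes measured) was 81.2 to 100.6 in torpid and 134 to 161 in summer animals, mostly from Tnnc2 on MA11, and that of cell division markers (6 of 7 genes) 106 to 159 and 169 to 206, mostly from Bub1 on MA11. Below 0 were 4 of 6 tested muscle probes and 9 of 12 cell division probes, beside 50% of all tested probes. Among those above were Actn3 on MA11, at 0.97, and Bub1 on MA10, at 0.32. The erythroid, immune, endothelial and nerve sums overlapped between the groups. Below 0 were 3 of 3 tested erythroid, 12 of 18 immune, 2 of 8 endothelial and 9 of 24 nerve probes. At an unadjusted p under 0.05, 5 immune probes were lower and 2 higher, or 27.8% and 11.1%, beside 5.18% and 6.39% of all tested probes. Of cell division probes 3 (25%) were lower and 0 higher, and in the other marker lists at most 1 probe went each way. The part of any of these cell types in the ribosomal protein differences was not tested.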

How the data were processed

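RNA from brown fat of 5 torpid and 3 summer arctic ground squirrels gave 44 columns of values over 4 membranes. The authors deposited linear spot intensity values, each divided by its column's median, as the values show. How spots were read, how background was handled and why 3.45% of values are empty is given by no source used here, and no level was set against background.

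Intensities were converted to log2 with no floor, and both columns of a split RNA were averaged as log2 values. The 4 membranes were fitted separately (limma 3.58.1, R 4.3.3, lmFit with eBayes, two-sided) where at least 2 animals per group had values, and p-values were adjusted by Benjamini-Hochberg over all 37848 tested probes, with a threshold of 0.05. The number of arrays limits the precision.

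Symbols came from platform annotation of 2007 and name mouse genes, and 70 of the 84 member symbols match the squirrel's RefSeq annotation. Sequences of the probes were not used here. Named genes were the called probes, the 8 genes per subunit with the largest fall and the 5 with the largest rise in a probe with all values, a fixed set (Rplp0, Rplp1, Rplp2, Rpsa, Rps6, Rpl3, Rps3, Rpl10, Rps27a, Rpl22), and the 5 clones with the widest range between membranes. Members and lists were chosen with earlier results of these data known. The fit was tested on simulated data.

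Alternatives covered scaling, filters, the variance model, the duplicates, a replicate block, the adjustment, and each animal left out.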

Additional observations from a re-analysis of the deposited data

Results flagged for a closer look

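In 3 of 76 checked sets of 5 torpid animals 1 animal stood far from the others, and chance flags about 1 such set in 20. The median level of small subunit probes on MA07 was lowest in torpid animal 3, at 1.17, with the other 4 torpid animals between 1.61 and 1.74. Over all ribosomal protein probes on MA11 torpid animal 5 was highest, at 2.83, with the others between 2.36 and 2.49. In the Rpsa probe 4469 on MA10 torpid animal 5 was lowest, at 3.59, with the others between 4.50 and 4.70, and all 5 lay under the summer animals.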

How the results depend on the processing

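No cause of the changes below was tested. The member probes called lower in torpor, 7 in the reported fit, numbered 11 with a floor at the 10th percentile, 18 among probes above the median signal, 12 with a trended and robust variance, 2 with the first and 4 with the second duplicate only, 17 with all columns and animal as a random block, 17 at a threshold of 0.1, 1 with the brightest probe per gene and membrane, and 0 without MA10, a setting chosen after seeing the data. A member called higher appeared with all columns and animal as a random block (1). With 1 animal left out in turn, lower calls ranged from 1 to 8, higher calls from 0 to 2 and calls over all probes from 17 to 347. Over all probes 117 calls became 63 with cyclic loess, 280 among probes above the median signal, 228 with trended and robust variance, 176 and 38 with the first and second duplicate, 298 with all columns, 304 at 0.1 and 69 without MA10. The MA10 member median of -0.83 was -0.48 and -1.16 with the first and second duplicate, and -0.97 to -0.76 with 1 animal left out. The large minus small contrast changed sign on MA10, to 0.20 with the second duplicate, and with 1 animal left out ranged over -0.21 to 0.17 on MA10, -0.13 to 0.21 on MA08, -0.11 to 0.12 on MA07 and 0.01 to 0.44 on MA11. On MA08 the member median was 0.01 with all columns and animal as a random block. Animals of the same number in both groups share only the number: their deviations correlated at 0.020, 0.0073 and 0.0076, and the fit with the number as a replicate block gave 2 lower member calls, both among the 7, and 32 calls over all probes. Quantile normalization, centring on non-empty probes, animal weights and adjustment within membranes kept the member count within 1.5 times.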
